A study of Mus musculus with 4 samples.

Results

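*Malat1*, *Neat1*, *Meg3*, *Snhg11*, *Miat*, *Rian* and *Kcnq1ot1* are long noncoding RNAs that are often reported from brain tissue. They were chosen by name, as 7 of the 27487 gene symbols listed in the count tables of 4 mouse cortex libraries, and are described here across cell types and genotypes. Single-cell RNA was measured by Drop-seq, a droplet method that tags the 3′ end of each captured molecule with a cell barcode and a unique molecular identifier (UMI), in the dissociated cortex of Tg2576 mice and wild-type littermates of 24 weeks. Tg2576 mice are heterozygous for a transgene encoding human APP with the Swedish mutation, known to be driven by the hamster prion protein promoter, on a mixed B6 and SJL background, and are used as a model of amyloid pathology. The 4 groups were female wild-type, female Tg2576, male wild-type and male Tg2576 mice. Each group was 1 library made from 9 pooled animals, so that single animals cannot be told apart and no group had a replicate.

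Long noncoding RNAs are transcribed and often spliced like messenger RNAs but encode no known protein, and many act in the nucleus. *Malat1* gathers in nuclear speckles, where splicing factors are stored, and *Neat1* is the scaffold around which the proteins of paraspeckles assemble. *Meg3* and *Rian* are expressed from the maternal allele of the imprinted Dlk1-Dio3 domain, and *Kcnq1ot1* is transcribed from the paternal allele antisense to *Kcnq1* and silences neighbouring genes in cis. *Snhg11* is a host gene of small nucleolar RNAs, and *Miat* is a nuclear RNA known from neurons and their progenitors. The mature *Malat1* transcript and the long form of *Neat1* end without a poly(A) tail, whereas the libraries were made from polyadenylated RNA, and how far this affected their capture was not tested.

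The members lie on 5 mouse chromosomes (RefSeq, GRCm38.p6, the mm10 assembly). *Malat1* (chr19:5795690-5802672, minus strand) and *Neat1* (chr19:5824708-5845480) are separated by 22035 bases, and *Meg3* (chr12:109540996-109571729, plus strand) and *Rian* (chr12:109603945-109661716, plus strand) by 32215 bases. *Snhg11* spans chr2:158375713-158386474 on the plus strand and *Miat* chr5:112213228-112228948 on the minus strand. *Kcnq1ot1* (chr7:143213111-143296547, minus strand) lies inside *Kcnq1* (chr7:143106877-143427050). Whether the counting used strand is not given in the sources used here, but *Kcnq1* itself had 7 UMIs in the cells analysed, against 1273 for *Kcnq1ot1*.

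Promoters, taken as 250 bases before to 50 bases after the RefSeq start, were available for 6 of the 7 members, all but *Neat1*. They were searched on both strands for TGACGT, the core of the cyclic AMP response element, a sequence bound by CREB-family factors in neurons and many other cells. The windows of 4 members are shown 5′ to 3′ on the gene's own strand with each match in capitals: *Meg3* and *Snhg11*, whose UMIs came mostly from neurons, *Kcnq1ot1*, which was higher in neurons but present in most types, and *Malat1*, which was high in nearly every type.
Meg3 (chr12:109540746-109541045, plus strand): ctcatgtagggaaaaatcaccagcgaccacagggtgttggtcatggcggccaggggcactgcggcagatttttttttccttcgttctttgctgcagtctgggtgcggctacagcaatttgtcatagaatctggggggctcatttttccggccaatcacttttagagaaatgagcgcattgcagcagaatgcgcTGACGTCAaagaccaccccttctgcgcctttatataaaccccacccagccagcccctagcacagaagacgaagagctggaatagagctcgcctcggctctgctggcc
Snhg11 (chr2:158375463-158375762, plus strand): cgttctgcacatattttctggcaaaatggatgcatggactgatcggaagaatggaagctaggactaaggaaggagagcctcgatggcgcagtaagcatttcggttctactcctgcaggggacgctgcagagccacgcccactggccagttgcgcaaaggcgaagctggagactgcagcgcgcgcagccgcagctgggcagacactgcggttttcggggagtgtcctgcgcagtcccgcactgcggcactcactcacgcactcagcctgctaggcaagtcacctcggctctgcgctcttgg
Kcnq1ot1 (chr7:143296498-143296797, minus strand): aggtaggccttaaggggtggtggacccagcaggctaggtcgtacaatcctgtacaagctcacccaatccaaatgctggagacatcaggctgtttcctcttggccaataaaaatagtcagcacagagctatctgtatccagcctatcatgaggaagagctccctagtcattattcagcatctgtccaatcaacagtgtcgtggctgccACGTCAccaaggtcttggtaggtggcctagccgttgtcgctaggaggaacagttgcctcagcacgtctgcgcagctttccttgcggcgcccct
Malat1 (chr19:5802623-5802922, minus strand): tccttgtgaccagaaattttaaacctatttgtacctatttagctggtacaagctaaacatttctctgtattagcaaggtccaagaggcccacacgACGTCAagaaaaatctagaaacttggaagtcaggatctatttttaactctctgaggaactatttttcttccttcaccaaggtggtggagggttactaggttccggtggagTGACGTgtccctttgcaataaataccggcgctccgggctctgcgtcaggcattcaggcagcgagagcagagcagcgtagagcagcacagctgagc
The *Meg3* window held the complete palindrome TGACGTCA, which counts as 2 overlapping matches, 1 on each strand, and which 1.79% of 32851 mouse promoters of the same length hold. *Malat1* had 2 separate matches to TGACGT and *Kcnq1ot1* had 1, where 7.51% of promoters have any. No match was found in the windows of *Snhg11*, *Miat* and *Rian*, nor in a second *Meg3* window, which starts at 109545148. The TATA box (TATAAA, in 13.6% of promoters) was also searched and had 2 matches in the first *Meg3* window. The CCAAT box (CCAAT, in 37.4%) had 3 matches in *Kcnq1ot1* and 1 in the first *Meg3* window. The GC box (GGGCGG, in 35.7%) had 1 match, in *Miat*. The number of CG dinucleotides also differed, with 25 in the *Miat* window, 21 in *Snhg11*, 13 in *Meg3*, 10 in *Malat1*, 9 in *Kcnq1ot1* and 0 in *Rian*, against a median of 7 over all promoters. A match describes the letters and not a bound site, and a window without one says only that these letters are not in it.

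After barcodes with 200 to 7000 genes and at most 20% mitochondrial UMIs were kept, the libraries held 1044 female wild-type, 1249 female Tg2576, 1010 male wild-type and 1532 male Tg2576 cells, 4835 in all, with median depths of 1331.5, 1043, 1320.5 and 909 UMIs per cell. Between 2 and 4 barcodes of kept cells were shared by each pair of libraries. Of the named cell types, 10 had at least 3 cells in every library: microglia (349 to 539 cells per library), endothelial cells (150 to 309), astrocytes (164 to 316), oligodendrocytes (77 to 105), mural cells (34 to 55), neuroblasts or progenitors (23 to 31), oligodendrocyte precursor cells (OPCs, 8 to 36), choroid plexus cells (12 to 42), macrophages (7 to 10) and neurons (4 to 43). The cells were clustered without the members, and each of these types had at least 7 markers of its list at least 2-fold higher than in other cells. Labels of 2 types need a caution. The 31 macrophages included 1 cell that held all 318 UMIs of the neutrophil genes *S100a8* and *S100a9* and 0 UMIs of the macrophage markers, and 28 of the 31 had a macrophage marker UMI. The 4 male wild-type neurons included 1 cell with a single neuron marker UMI that the doublet caller Scrublet marked as a droplet of more than 1 cell (a doublet), and that cell held 64.3% to 100% of the UMIs of each member found in this group, except *Miat* and *Neat1*, which were at 0.

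Levels are given as UMIs per 1000000 UMIs of a cell type in a library (CPM), and libraries in the order female wild-type, female Tg2576, male wild-type, male Tg2576. They compare cell types and libraries for 1 gene, not genes with each other. *Malat1* was abundant by any count: it held 252665 UMIs in the kept cells, the second highest total of 26726 genes, and 4.90%, 4.32%, 3.44% and 2.76% of all UMIs in the 4 libraries. *Meg3* had 3054 UMIs, *Neat1* 2240, *Kcnq1ot1* 1273 and *Snhg11* 722. *Rian* with 68 and *Miat* with 61 UMIs ranked 10499 and 10912 among the genes, so the name abundant does not hold for them in these libraries.

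**Figure D1:**
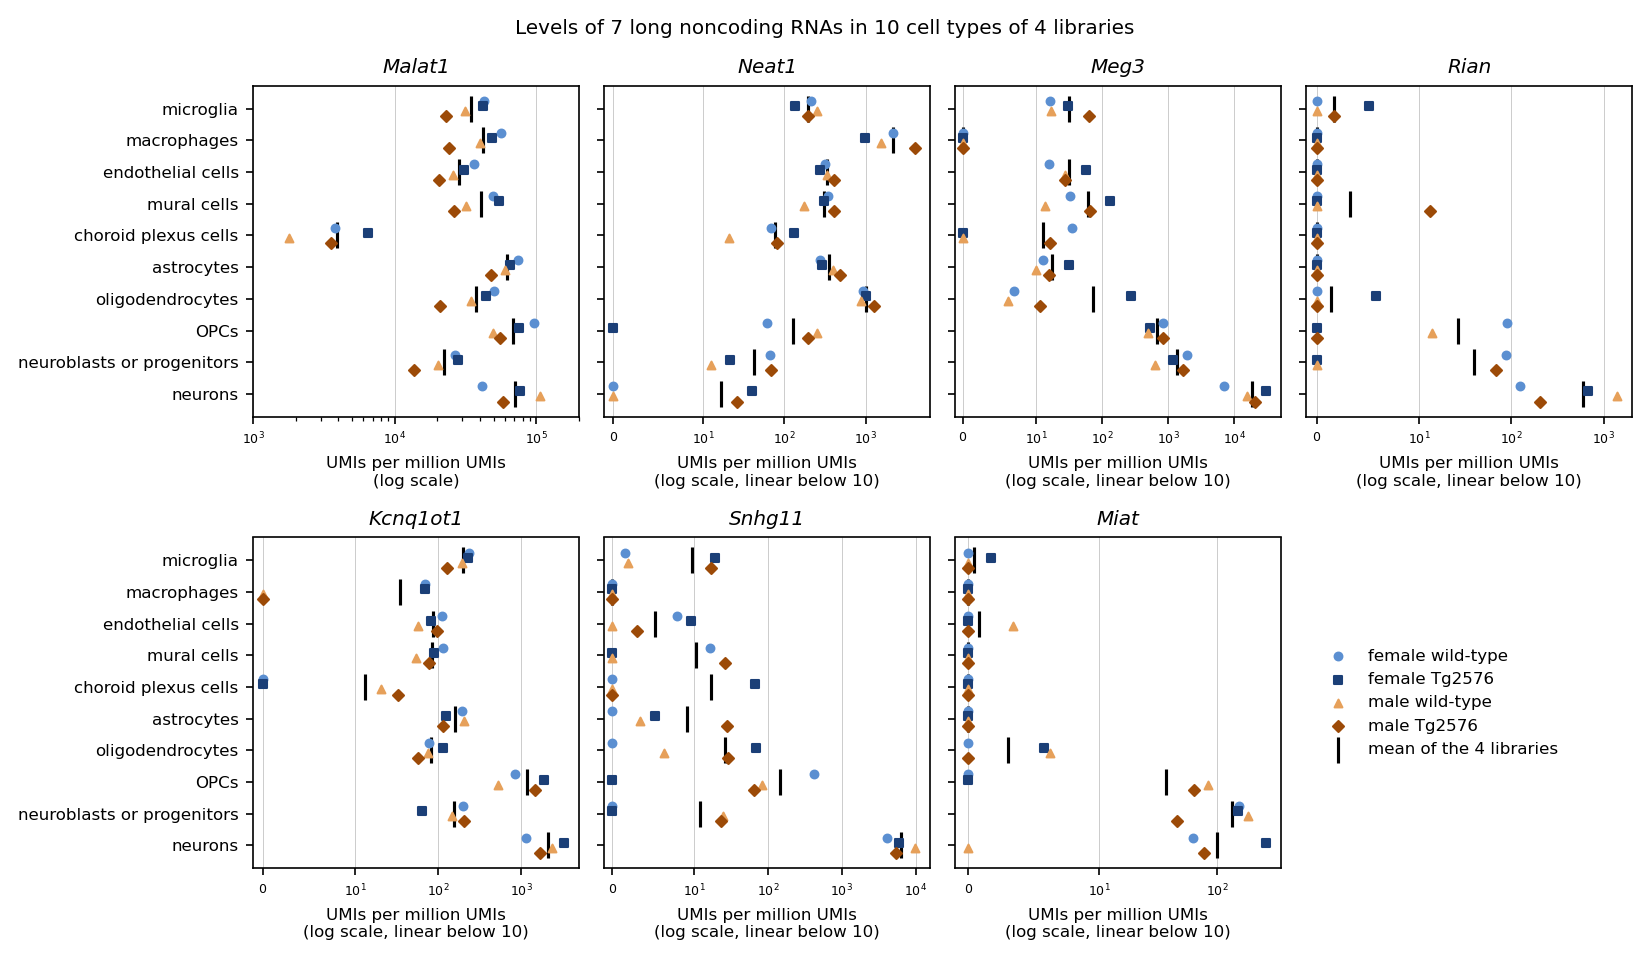
Levels of the 7 members in 10 cell types, in CPM on a log scale (linear below 10 except for *Malat1*). Each point is 1 library, with its group given by colour and symbol, and the vertical bar is the mean of the 4 libraries; *Malat1* was lowest in choroid plexus cells (mean 3890), *Neat1* lowest in neurons (mean 16.5) and *Meg3* highest there (mean 18397).

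Each cell type was compared with the unweighted mean of the other 9 types, with the library as a block (edgeR's quasi-likelihood test with Benjamini-Hochberg adjustment over the 3969 genes tested, to which all adjusted p-values between cell types refer). *Rian* did not pass the filter on low counts, and of 60 contrasts of the other 6 members 28 were called, 19 higher and 9 lower, with DESeq2 calling 32, 16 in each direction. The units of this test were the 4 libraries, which differed in sex and genotype, and the median difference over all genes lay between -0.77 in macrophages and 0.25 in mural cells. All 6 differed in neurons (5 higher, 1 lower, where 28.9% of all genes were called) and 5 were higher in OPCs (22.7% of all genes called). In neuroblasts or progenitors 4 were called, 2 in each direction (30.3%). Glial, immune and vascular cells had fewer calls, with 3 members higher in astrocytes (43.9%), 3 lower in choroid plexus cells (36.3%), 1 higher and 2 lower in macrophages (15.8%), 1 higher and 1 lower in endothelial cells (40.4%), 1 higher in oligodendrocytes (32.1%), 1 higher in microglia (48.1%) and 0 in mural cells (26.7%), where 2 were at an unadjusted p under 0.05 by edgeR. The shares of members called in neurons, OPCs, neuroblasts or progenitors and macrophages were thus above the background and those in microglia, endothelial cells, oligodendrocytes and mural cells near or below it. For a gene at or near 0 in several types the mean of the others is itself near 0, so that this comparison can miss a low level, and among *Meg3*, *Snhg11* and *Miat* the 1 call of a lower level was *Meg3* in macrophages. Against the summed UMIs of the other types, a comparison chosen after the data were seen, 41 of 53 contrasts were called, 12 higher and 29 lower, and 20 of the 28 were shared.

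*Malat1* was high in 9 of the 10 types and low in 1. Its mean level was 70619 ± 27748 CPM in neurons (SD, n = 4 libraries, as for all means that follow), 68709 ± 21141 in OPCs, 61759 ± 11298 in astrocytes, 42166 ± 13628 in macrophages, 40500 ± 13511 in mural cells, 37381 ± 12708 in oligodendrocytes, 34751 ± 9455 in microglia, 28374 ± 6725 in endothelial cells and 22112 ± 6507 in neuroblasts or progenitors. Neighbours in this order overlapped in their ranges over the libraries throughout. Ependymal cells, 25 in all and too few to be tested, had 32529, 16285, 29519 and 16130 CPM. Choroid plexus cells, the epithelium that secretes cerebrospinal fluid, stood apart with 3890 ± 1950 CPM. Their libraries had 3771, 6495, 1775 and 3520 CPM, all below the lowest value of any other type, 13743 CPM in the neuroblasts or progenitors of the male Tg2576 library.

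In astrocytes *Malat1* was higher than the mean of the other types by 1.52 on the log2 scale (edgeR adjusted p = 7.22e-07), with 74729, 64999, 59688 and 47620 CPM. The astrocyte range lay wholly above that of endothelial cells, which had 36225, 31010, 25588 and 20672 CPM. It was also called higher in OPCs (log2 difference 0.96, edgeR adjusted p = 0.0089) and neurons (0.92, edgeR adjusted p = 0.011), but against the summed other types the differences were 0.11 (edgeR adjusted p = 0.91) and -0.013 (edgeR adjusted p = 0.99), so these calls rest on how the other types are weighted. It was called lower in neuroblasts or progenitors (-0.97, edgeR adjusted p = 0.025) and in choroid plexus cells (-3.32, edgeR adjusted p = 6.14e-12). The choroid plexus difference ranged from -3.66 to -3.03 when each library was left out in turn.

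The low *Malat1* of choroid plexus cells was seen in single cells as well as in sums. Of the 109 cells, 33 (30.3%) had no *Malat1* UMI, against 0.610% to 12.9% of cells in the other 9 types and 2.15% of microglia. After each cell was thinned to 500 UMIs, cells with a *Malat1* UMI made up 38.5%, 66.7%, 45.0% and 45.2% of choroid plexus cells and 97.9% to 99.3% of microglia. What *Malat1* there was came largely from 1 cell in each library. That cell held 79.8%, 73.5%, 51.8% and 61.9% of the choroid plexus UMIs of *Malat1* in the 4 libraries. Without it, levels were 1004, 1910, 906 and 1455 CPM. The cell also carried 22 astrocyte marker UMIs in the female wild-type library (median of the other choroid plexus cells 3.5), 36 in the male Tg2576 library (median 2), and 19 and 54 microglia marker UMIs in the female Tg2576 and male wild-type libraries (medians 1 and 0), and the part of other cells' RNA in these values was not tested. All 4 also had choroid plexus marker UMIs, between 117 and 1858. The cells of the female wild-type and male Tg2576 libraries were deep, at 6987 and 4730 UMIs, where the median choroid plexus cell had 1572 and 744.5. Shallower cells of these libraries had 9 astrocyte marker UMIs of 1639 and 11 of 728. Male Tg2576 cells of 5003, 4000 and 3943 UMIs had 18, 14 and 2, below the 36. Female wild-type cells of 4544 and 2904 UMIs had 6 and 11, below the 22. Whether the astrocyte counts of 22 and 36 exceed what depth gives was not tested.

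**Figure D2:**
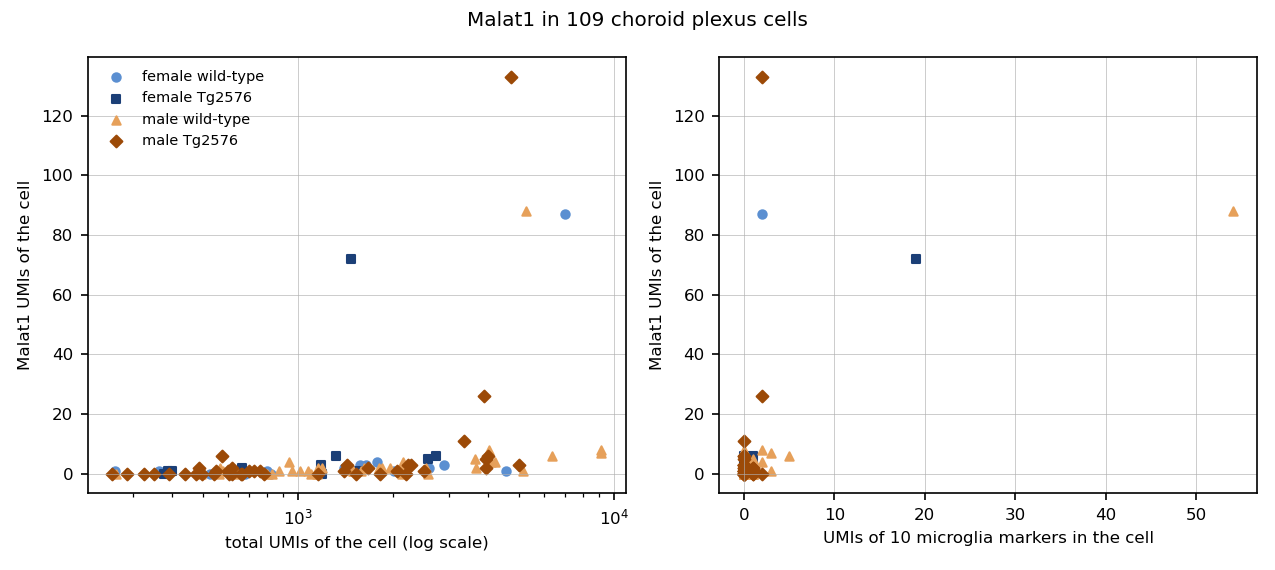
*Malat1* UMIs (vertical axis) of each of the 109 choroid plexus cells against the total UMIs of the cell (left, log scale) and against its UMIs of 10 microglia markers (right), with the library given by colour and symbol. The 1 cell with most *Malat1* in each library had 72 to 133 UMIs, and 2 of these 4 cells, from the female Tg2576 and male wild-type libraries, stand apart by their 19 and 54 microglia marker UMIs.

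The genes whose mean level over the 10 types was most like that of *Malat1* were *Hook3*, *Gm37376* and *Ubr4*, with a Pearson correlation of 0.93, 0.92 and 0.92 of log2(CPM + 10) over the 10 types among 9611 genes. *Hook3* encodes a microtubule adaptor and *Ubr4* a ubiquitin ligase. The same measure between *Malat1* and *Neat1*, its neighbour on chromosome 19, was 0.14, and between *Malat1* and *Kcnq1ot1* it was 0.68. These correlations over 10 types describe the means and share their libraries, their cells and the depth of each type.

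*Neat1* followed a different order from *Malat1*. It was highest in macrophages (2194 ± 1340 CPM) and oligodendrocytes (1021 ± 167), lower in astrocytes (360 ± 95.7), endothelial cells (334 ± 56.6), mural cells (309 ± 97.6) and microglia (197 ± 48.3), and lowest in neuroblasts or progenitors (42.0 ± 29.2) and neurons (16.5 ± 20.0). Oligodendrocytes, the myelin-forming cells, gave the most even values, with 941, 1013, 873 and 1256 CPM, and did not overlap with astrocytes, which had 274, 291, 395 and 479 CPM. A *Neat1* UMI was found in 62.7% to 69.7% of oligodendrocytes (30.8% to 38.8% at 500 UMIs per cell) and in 12.0% to 24.4% of microglia (4.94% to 11.3% at 500 UMIs per cell). Barcodes with under 200 genes, given here as a background, had a *Neat1* UMI in 1.28% to 2.88% at a median depth of 90 to 166 UMIs.

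The test called *Neat1* higher in oligodendrocytes (log2 difference 2.80, edgeR adjusted p = 6.48e-41) and macrophages (2.94, edgeR adjusted p = 2.63e-18), and also in astrocytes (1.30, edgeR adjusted p = 3.41e-10) and endothelial cells (0.83, edgeR adjusted p = 0.00011). It was called lower in neurons (-3.28, edgeR adjusted p = 1.52e-05), neuroblasts or progenitors (-3.08, edgeR adjusted p = 1.91e-08) and choroid plexus cells (-1.89, edgeR adjusted p = 0.00048). Only 3 *Neat1* UMIs were found in the 95 neurons, in 2 cells, and 8 in the 112 neuroblasts or progenitors. Against the summed other types the endothelial difference was -0.062 (edgeR adjusted p = 0.71), so endothelial cells were higher than the average type but not than the average cell. The macrophage level rested on few cells: 1 cell held 61.3%, 64.3%, 50% and 87.5% of the macrophage UMIs of *Neat1* in the 4 libraries, and without it the mean was 833 CPM, between those of oligodendrocytes and astrocytes.

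A single cell also set the *Neat1* value of male wild-type OPCs, where 14 of 18 UMIs came from a cell with 243 oligodendrocyte marker UMIs, and without it the level fell from 252 to 61.0 CPM. That cell was not called a doublet. The other OPCs of the library had a median of 3 oligodendrocyte marker UMIs, but 1 of them had 313. Within microglia, the cluster led by *Ccl4*, *Cd83* and *Il1a*, genes known from activated microglia and from dissociation, had 276, 203, 275 and 222 CPM of *Neat1*. The other microglia cluster, led by *Gm16228*, *P2ry12* and *Maf*, had 89.5, 80.9, 160 and 116 CPM. The first cluster was higher in each of the 4 libraries, whereas *Malat1* was similar in both, with 43946, 42482, 31341 and 22415 CPM against 40442, 41771, 30848 and 24593. The clusters were drawn from the same cells, so no test was made of this difference.

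Genes most like *Neat1* over the 10 types were *Enox2*, *Snapc5* and *Rnf130* (Pearson correlation 0.93, 0.91 and 0.91). Of 10 paraspeckle protein genes, whose products bind *Neat1*, 7 were tested between cell types. All 7 were higher in neuroblasts or progenitors (20.4% of all genes), with a median log2 difference of 1.19 (-0.06 over all genes tested), where *Neat1* itself was low. The largest differences were those of *Tardbp* (2.02, edgeR adjusted p = 1.50e-08), *Hnrnph3* (1.91, edgeR adjusted p = 2.51e-11) and *Nono* (1.64, edgeR adjusted p = 5.22e-05), which encode RNA-binding proteins. In oligodendrocytes, where *Neat1* was high, 1 of the 7 was higher (24.6% of all genes), again *Hnrnph3* (0.85, edgeR adjusted p = 0.0027), and in macrophages 3 were lower (6.73% of all genes). In choroid plexus cells, where *Neat1* was also called lower, 3 of the 7 were lower (16% of all genes) and 0 higher. In neurons, where *Neat1* was lowest, 1 of the 7 was higher (694 of 3969 genes over all) and 0 lower. Of 11 nuclear speckle and splicing protein genes, all tested, 10 were higher in microglia (36.7% of all genes), with a median of 0.72 (0.18 over all genes tested) and *Tra2b* the highest at 1.95 (edgeR adjusted p = 1.19e-30). In choroid plexus cells, where *Malat1* was low, 7 of the 11 were lower (16% of all genes), with a median of -1.25 (-0.30 over all genes tested). The lowest were the splicing factor genes *Srsf1* (-3.56, edgeR adjusted p = 0.0012), *Srsf7* (-2.92, edgeR adjusted p = 0.00095) and *Tra2a* (-2.75, edgeR adjusted p = 7.59e-08). In neuroblasts or progenitors, where *Malat1* was also called lower, 6 of the 11 were higher (20.4% of all genes) and 0 lower, with a median of 0.58. In astrocytes, where *Malat1* was called higher, 2 were higher (34.2% of all genes), with a median of -0.15 (0.22 over all genes tested).

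*Meg3*, *Snhg11* and *Rian* were RNAs of neurons in these libraries, in which 95 cells, 1.96% of the kept cells, held most of their UMIs. Neurons had 81.0% of all *Meg3*, 85.3% of all *Snhg11* and 73.5% of all *Rian* UMIs. *Meg3* was at 7102, 30223, 15858 and 20404 CPM in neurons, with a mean of 18397 ± 9625, and found in 12 of 13, 34 of 35, 3 of 4 and 42 of 43 cells. Its next types were neuroblasts or progenitors, with 1949, 1204, 641 and 1689 CPM, and OPCs, with 847, 533, 503 and 838 CPM. The neuron values lay above all of these. Each of the other 7 types had a mean of at most 74.2 CPM, and the 31 macrophages had 0 *Meg3* UMIs.

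**Figure D3:**
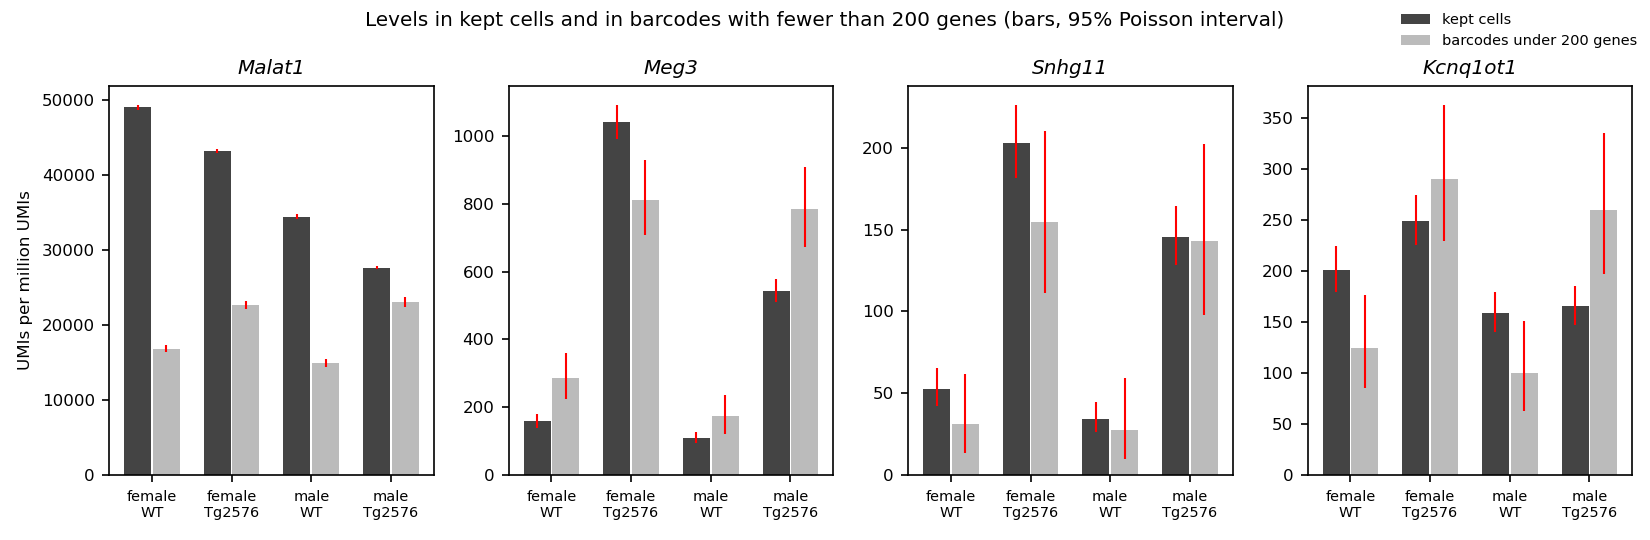
Levels of 4 members in CPM in each library, with dark bars for all kept cells, light bars for barcodes with under 200 genes and lines for exact Poisson 95% intervals. In barcodes with under 200 genes *Meg3* reached 812 in the female Tg2576 and 784 in the male Tg2576 library, against 285 and 173 in the wild-type libraries.

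*Meg3* was called higher in neurons (log2 difference 8.25, edgeR adjusted p = 2.45e-96), neuroblasts or progenitors (4.21, edgeR adjusted p = 3.40e-28) and OPCs (3.46, edgeR adjusted p = 2.53e-13). Against the summed other types the OPC difference was 0.70 (edgeR adjusted p = 0.21), while neurons (6.65, edgeR adjusted p = 2.81e-17) and neuroblasts or progenitors (1.75, edgeR adjusted p = 1.37e-14) passed. It was called lower in macrophages (edgeR adjusted p = 0.027), which had 0 UMIs of it in all 4 libraries, among 5899 to 14363 UMIs of all genes per library. Barcodes with under 200 genes held *Meg3* at 285, 812, 173 and 784 CPM. The levels of *Meg3* in microglia (16.4, 30.8, 16.8 and 63.3 CPM), astrocytes (12.6, 31.1, 10.0 and 15.5), endothelial cells (15.8, 57.7, 27.0 and 27.3) and choroid plexus cells (0 to 34.6) were below those, and the part of free RNA in them was not tested. Single cells set other low values: 26 of 47 UMIs in female Tg2576 oligodendrocytes came from 1 cell with 9 neuron marker UMIs, and 26 of 38 in male Tg2576 microglia and 8 of 9 in male wild-type microglia from 1 cell each.

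*Snhg11* had 4085, 5960, 9795 and 5488 CPM in neurons (mean 6332 ± 2442), and 11 of 13, 33 of 35, 2 of 4 and 32 of 43 cells had a UMI. OPCs were the next type at 424, 0, 83.9 and 64.4 CPM, and no other type had a mean above 26.1 CPM. The log2 difference was 8.60 in neurons (edgeR adjusted p = 8.72e-103), whose values lay above those of every other type. In OPCs it was 3.25 (edgeR adjusted p = 2.67e-06), which became 0.52 against the summed other types (edgeR adjusted p = 0.50). *Meg3* and *Snhg11* were found together in 76 of the 95 neurons (80.0%), in 7 of 102 OPCs (6.86%) and in 2 of 1862 microglia (0.107%). *Rian* was lower in UMIs but had the same leading type, with 126, 685, 1399 and 206 CPM in neurons (2, 34, 6 and 8 UMIs), and all 6 UMIs of the male wild-type library came from the cell called a doublet. It was listed at 0 in macrophages, astrocytes, endothelial cells and choroid plexus cells.

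Over the 10 types, *Meg3* was most like *Usp29* and *Srrm3* (Pearson correlation 0.98 and 0.98). *Snhg11* was most like *Gm44679*, *Vstm2a* and *Gm45176* (all 0.99), and *Rian* most like *Cntnap4*, *Gm37899* and *A230103L15Rik* (1.00, 1.00 and 0.99). *Meg3* and *Rian*, neighbours in the Dlk1-Dio3 domain, had a correlation of 0.92. Of 7 other genes listed for that domain, *Wars*, a tRNA synthetase gene, had 183 UMIs and its highest mean in endothelial cells (49.6 CPM), and the others were scarce: *Mirg*, which follows *Rian*, had 13 UMIs and its highest mean in neurons (75.9 CPM), *Begain* and *Wdr25* had 5 each, *Dlk1* had 2, *Rtl1* had 1 and *Dio3* was not listed. All neuronal genes share the same few cells, and a high correlation here says little more than that neurons led.

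*Kcnq1ot1* was also highest in neurons, with 1131, 3262, 2332 and 1675 CPM (mean 2100 ± 917), but it was present in most other types. OPCs followed at 847, 1866, 531 and 1450 CPM, overlapping with neurons. All other types had lower levels, from 197 ± 48.5 in microglia and 160 ± 46.8 in astrocytes to 34.9 ± 40.3 in macrophages and 13.4 ± 16.2 in choroid plexus cells. Unlike *Meg3* and *Snhg11*, neurons held only 20.0% of its UMIs and microglia 37.2%. A UMI was found in 51.2% to 75.0% of neurons, 41.7% to 75.0% of OPCs and 8.72% to 18.1% of microglia, against 0.782% to 3.99% of barcodes with under 200 genes. In those barcodes its level was 125, 291, 100 and 260 CPM, which was below that of microglia in the wild-type libraries (234 and 194 CPM) and above it in the Tg2576 libraries (231 and 130 CPM). The part of free RNA in its microglia level was not tested.

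*Kcnq1ot1* was called higher in neurons (log2 difference 4.09, edgeR adjusted p = 1.35e-46) and OPCs (2.80, edgeR adjusted p = 1.66e-20), and both held against the summed other types (2.83 and 1.86, edgeR adjusted p = 3.96e-05 and 4.85e-06). Calls in microglia (0.69, edgeR adjusted p = 0.0028) and astrocytes (0.58, edgeR adjusted p = 0.037) were lost there, at 0.16 (edgeR adjusted p = 0.32) and -0.042 (edgeR adjusted p = 0.84). It was called lower in choroid plexus cells (-2.84, edgeR adjusted p = 0.00018), endothelial cells (-0.85, edgeR adjusted p = 0.016) and macrophages (-2.49, edgeR adjusted p = 0.044). Choroid plexus cells held only 4 of its UMIs and macrophages only 2. The macrophages had 5899 to 14363 UMIs of all genes per library, so their low level lies near the limit of detection. Its nearest genes over the types were *BC005561*, *Gprasp2* and *Fam133b* (Pearson correlation 0.97, 0.96 and 0.94). *Cdkn1c*, a cell cycle inhibitor that *Kcnq1ot1* is known to silence on the paternal allele, had its highest mean level in choroid plexus cells (885 CPM), where *Kcnq1ot1* was lowest, and was called higher there (4.82, edgeR adjusted p = 5.26e-43). *Cdkn1c* was also called higher in mural cells (3.27, edgeR adjusted p = 9.42e-20) and endothelial cells (2.69, edgeR adjusted p = 1.09e-21). It was called lower in astrocytes (-3.67, edgeR adjusted p = 1.49e-05) and not called in the remaining types. In macrophages, the next lowest type for *Kcnq1ot1* by its mean from 2 UMIs, the difference of *Cdkn1c* was -1.47 (edgeR adjusted p = 0.54). Of the 10 listed genes of this domain 3 had enough counts for the test, and the others, *Cd81* and *Nap1l4*, had differences of -0.40 (edgeR adjusted p = 0.28) and 0.19 (edgeR adjusted p = 0.75) in choroid plexus cells.

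*Miat* was a rare RNA, found mostly in neuroblasts or progenitors and neurons. Its 61 UMIs lay in neuroblasts or progenitors (31), neurons (17) and OPCs (8), with 5 in all other kept cells. The OPC UMIs came from the male wild-type (6) and male Tg2576 (2) libraries, with 0 in female OPCs. In neuroblasts or progenitors, young cells marked by *Dcx* and *Dlx1*, it had 153, 151, 185 and 45.7 CPM (7, 7, 15 and 2 UMIs), with a mean of 134 ± 60.7. In neurons it had 62.9, 262, 0 and 77.3 CPM, overlapping with these. The log2 difference was 5.07 in neuroblasts or progenitors (edgeR adjusted p = 7.75e-14), 5.46 in neurons (edgeR adjusted p = 6.55e-11) and 3.76 in OPCs (edgeR adjusted p = 0.00024). The genes most like it were *Dcx*, which encodes a microtubule protein of migrating neuroblasts, *Ttc9b* and *Scrt1* (all with a Pearson correlation of 0.99). It was not found in macrophages, astrocytes, mural cells or choroid plexus cells, where 3 UMIs would have made 9.32 to 509 CPM.

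Other long noncoding RNAs from a list of 22 showed further patterns. Of 8 with enough counts, 5 were higher in neuroblasts or progenitors (20.4% of all genes), with *Dlx6os1* at a log2 difference of 8.69 (edgeR adjusted p = 3.82e-86), and 4 in oligodendrocytes (24.6% of all genes), with *Sox2ot* at 5.33 (edgeR adjusted p = 3.79e-58). In astrocytes 3 were higher, a share near the 34.2% of all genes, with *Pantr1* at 4.72 (edgeR adjusted p = 1.85e-72).

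The genotype comparison asked whether the members differed between Tg2576 and wild-type mice. Over both sexes it was made in 6 cell types with at least 20 cells in every library, with sex as a covariate and 1 residual degree of freedom, so that it measures whether the 2 sexes moved alike. Of 17 contrasts of the members 0 were called by edgeR's quasi-likelihood test with Benjamini-Hochberg adjustment, 5 passed 0.05 before adjustment, and DESeq2 gave 0 calls and 2 that passed before adjustment. Among all genes 0.113% were called in astrocytes, 0.133% in microglia, 0.227% in oligodendrocytes, 0.268% in mural cells, 0% in endothelial cells and 0% in neuroblasts or progenitors, so hardly any gene was called in this design. The 5 were *Malat1* in astrocytes (log2 difference -0.31, edgeR adjusted p = 0.49) and endothelial cells (-0.33, edgeR adjusted p = 0.91), *Kcnq1ot1* in astrocytes (-0.80, edgeR adjusted p = 0.35), *Meg3* in microglia (1.39, edgeR adjusted p = 0.18) and *Neat1* in microglia (-0.55, edgeR adjusted p = 0.27).

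Within a sex there is 1 library per genotype and no test, and the exact 95% intervals given here cover counting error only. Log2 ratios are Tg2576 over wild-type. *Malat1* was lower in Tg2576 in 6 of 10 types in females and in 8 of 10 in males, and 4 types had both intervals below 0. These were oligodendrocytes (50082 against 44092 CPM in females and 34376 against 20975 in males, log2 ratios -0.18 and -0.71), macrophages (-0.21 and -0.72), astrocytes (-0.20 and -0.33) and endothelial cells (-0.22 and -0.31). The median gene moved by between -0.03 and 0.11 in these pairs, so *Malat1* was also lower relative to the median gene. Over the 10 types, 43.8% to 55.7% of genes with at least 10 UMIs in a pair lay below 0. The 6 of 10 types in females is near that share. Intervals of *Malat1* are narrow because they rest on many UMIs, and the share of all genes with both intervals below 0 was not computed. The macrophage ratios became 0.12 and 0.018 without cells called doublets, and the female ratio was 0.20 in endothelial cells and 0.59 in astrocytes at a mitochondrial limit of 5%. In microglia the female ratio was -0.02, with an interval of -0.05 to 0.00, and the male ratio -0.44, with an interval of -0.48 to -0.41.

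**Figure D4:**
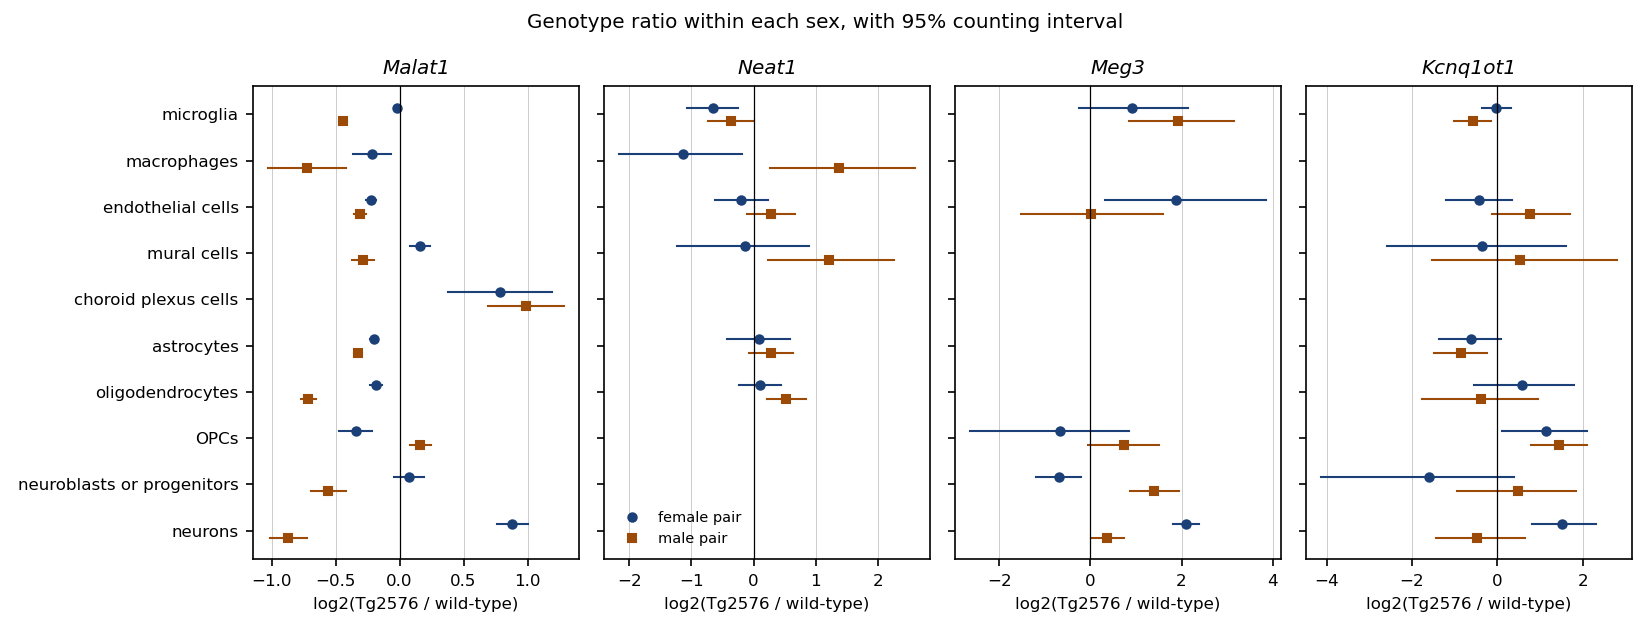
Log2 ratios of levels, Tg2576 over wild-type, within each sex, for 4 members and the cell types with at least 10 UMIs in both genotypes together in each sex, with exact 95% intervals for counting error only. *Malat1* lies below 0 in both sexes in oligodendrocytes (-0.18 and -0.71) and above 0 in choroid plexus cells (0.78 and 0.99).

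Wild-type and Tg2576 libraries also differed in the mitochondrial share of UMIs of kept cells, 9.27%, 9.92%, 6.89% and 5.00%, and in depth, so *Malat1* was compared within bins of each. In microglia with at most 5%, 5 to 10% and 10 to 20% mitochondrial UMIs the male ratio was -0.49, -0.36 and -0.71, so it was negative in each bin. In male astrocytes it was -0.34, -0.27 and -0.011, and in male endothelial cells -0.34, -0.20 and 0.13, so the lower level was not seen in the cells with most mitochondrial UMIs. Among female astrocytes it was 0.49 in the first bin, of 15 and 5 cells, and -0.28 and -0.21 in the others. By depth, female and male astrocytes of under 1000 UMIs had ratios of 0.20 and 0.11, and those of 1000 or more -0.29 and -0.48. Oligodendrocytes of under 1000 UMIs had ratios of 0.25 in the female pair (interval 0.08 to 0.41) and -0.99 in the male pair, and those with 10 to 20% mitochondrial UMIs -0.15 and 0.054, the last from 9 and 3 cells. Microglia of under 1000 UMIs had 0.12 (interval 0.06 to 0.18) and -0.19. The direction in astrocytes, oligodendrocytes and female microglia thus depended on which cells were compared. In endothelial cells both depth bins were negative in both sexes (-0.34 to -0.23), but the direction also depended on the mitochondrial bin. The ratio was 0.13 (interval 0.02 to 0.23) in males with 10 to 20% mitochondrial UMIs. In females with at most 5% it was 0.20 (interval -0.01 to 0.42, from 3 and 9 cells). The part of depth and mitochondrial share in these ratios was otherwise not tested.

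Choroid plexus cells went the other way, with 3771 against 6495 CPM of *Malat1* in females and 1775 against 3520 in males. The log2 ratios were 0.78 (interval 0.38 to 1.19) and 0.99 (0.69 to 1.29). Without the 4 cells described above the levels were 1004 against 1910 and 906 against 1455 CPM, higher in Tg2576 in both sexes. With at least 500 genes per cell the female ratio was -1.29, so the direction in females does not hold over the choice of cells.

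*Kcnq1ot1* in OPCs was higher in Tg2576 in both sexes, with 847 against 1866 CPM in females (28 and 14 UMIs, log2 ratio 1.14, interval 0.10 to 2.11) and 531 against 1450 in males (38 and 45 UMIs, 1.45, 0.79 to 2.11). The female Tg2576 library held 8 OPCs, too few for the genotype test, and the female ratio was 0.14 with TMM factors, which scale libraries by a trimmed mean over genes, and -0.38 after thinning to 500 UMIs. In astrocytes, in contrast, *Kcnq1ot1* had 192 against 125 CPM in females and 208 against 115 in males (-0.63, interval -1.37 to 0.08, and -0.85, -1.48 to -0.24). The difference between these cell types was not tested.

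*Meg3* was higher in Tg2576 neurons of both sexes, at 7102 against 30223 CPM in females (log2 ratio 2.09, interval 1.81 to 2.38) and 15858 against 20404 in males (0.36, 0.01 to 0.74), where the 4 male wild-type neurons weigh heavily. Without the cell called a doublet the male wild-type level was 8130 CPM, and with a mitochondrial limit of 10% the male ratio was -0.013, whereas TMM factors in place of total UMIs gave 1.98. Over all kept cells *Meg3* was at 159 against 1041 CPM in females and 109 against 543 in males, alongside 13 against 35 and 4 against 43 neurons. The number of neurons and the level within them cannot be told apart in such a sum. *Snhg11* in microglia had 1 and 11 UMIs in wild-type and Tg2576 females (1.49 against 18.8 CPM) and 1 and 10 in males (1.86 against 16.6 CPM), and 7 of the 10 lay in 1 cell. These levels were below those of barcodes with under 200 genes, 31.3, 155, 27.3 and 143 CPM.

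In microglia *Meg3* had 16.4 against 30.8 CPM in females and 16.8 against 63.3 CPM in males, where barcodes with under 200 genes had 285 against 812 and 173 against 784. Neuron markers summed over 9 genes in microglia stood at 32.8, 32.5, 28.0 and 28.3 CPM, and 8 of the 9 had a UMI in all libraries but the male wild-type, where 6 did. In barcodes with under 200 genes the same markers had 387, 419, 286 and 345 CPM, a smaller rise than that of *Meg3* there. These markers thus cannot show whether free *Meg3* rose, and the part of free RNA in the *Meg3* levels of microglia was not tested. *Neat1* in microglia was lower in Tg2576 in both sexes, 210 against 133 CPM in females (log2 ratio -0.66, interval -1.08 to -0.25) and 250 against 195 in males (-0.36, -0.73 to 0.01). Its difference passed the threshold when cells had at least 500 genes (edgeR adjusted p = 0.048). The cluster led by *Ccl4*, *Cd83* and *Il1a*, which had more *Neat1*, held 273 of 459 and 196 of 515 microglia in females and 248 of 349 and 361 of 539 in males. The *Neat1* levels of each cluster, given above, were lower in Tg2576 in both sexes, but no interval was computed within clusters. The part of the cluster shares in the lower *Neat1* of microglia was not tested.

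In all, 33 pairs of member and cell type had at least 10 UMIs in each sex, and 8 had both intervals on 1 side of 0: the 5 of *Malat1*, *Kcnq1ot1* in OPCs, *Meg3* in neurons and *Snhg11* in microglia. With TMM factors in place of total UMIs the number was 14. The share of all genes with both intervals on 1 side of 0 was not computed. Genes of the related lists were tested in the same 6 types, with 36 contrasts for the other long noncoding RNAs, 44 for paraspeckle proteins, 63 for nuclear speckle and splicing proteins, 18 for the Kcnq1 domain and 2 for the Dlk1-Dio3 domain. By edgeR 0 of them were called in each list, with 3, 1, 0, 1 and 0 under 0.05 before adjustment, and DESeq2 gave 0 calls and 0 under 0.05 before adjustment in each list.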

How the data were processed

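The deposited files held UMI counts per gene and cell barcode, 3000 barcodes in each of the 4 libraries, which the authors had counted from Drop-seq reads and not normalized. The submitters' processing notes name Seurat 3.1.4 and the mm10 assembly. The aligner, the gene annotation and the strand setting are not given in the sources used here. The tables were joined by gene symbol (27487 symbols, 18218 of them in all 4 tables), so genes absent from a table were taken as 0.

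Barcodes with 200 to 7000 genes and at most 20% mitochondrial UMIs were kept, since the 5% limit of the study's methods left 14.5% to 55.6% of the barcodes with at least 200 genes. Cells were normalized with sctransform 0.4.2 and clustered in Seurat 5.3.0 (R 4.3.3) on the 2500 most variable genes without the members, mitochondrial and sex-linked genes, with 19 principal components and resolution 0.5. A cluster was named from lists of marker genes if at least 3 markers exceeded their level in other cells by 2-fold or more, and was divided again where a second list came close, a step chosen after the clusters had been seen. No doublet caller was used except in an alternative with Scrublet (scanpy 1.11.5), which called 92 of the 4835 kept cells.

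UMIs were summed per cell type and library. Cell types with at least 3 cells in every library were compared by edgeR 4.0.16 (quasi-likelihood test after filterByExpr and with TMM factors, Benjamini-Hochberg adjustment at 0.05) with library as a block, and genotypes were compared in types with at least 20 cells in every library with sex as a covariate. Both fits were tested on simulated data. DESeq2 1.42.0, other limits on cells, other resolutions, TMM or reduced totals, thinning to 500 UMIs and leaving out each library were alternatives, and 3 more were chosen after the data had been seen: the comparison against summed other types, genotype fits without a sex term, and levels without the cell that held most UMIs. Poisson, Clopper-Pearson and conditional binomial 95% intervals (Python 3.11.15, scipy 1.17.1) are exact and cover counting error only, and the limit for a count of 0 was taken as 3 UMIs. With a median of 909 to 1331.5 UMIs per cell, rare members are missed in most single cells.

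The genes named are the 7 members, for each the 3 genes with the highest Pearson correlation of mean log2(CPM + 10) over the cell types among genes reaching 50 CPM in a type, and up to 3 of each list of related genes with the largest differences in the cell type described. For *Meg3* 1 of the 3 is not reported here. The members and the lists were chosen with earlier results of these data known.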

Additional observations from a re-analysis of the deposited data

Results flagged for a closer look

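Several members differed in direction between the sexes, with the log2 ratio of Tg2576 over wild-type positive in 1 sex and negative in the other. With 1 library per sex and genotype these differences were not tested. *Malat1* stood at -0.34 in female and 0.16 in male OPCs, at 0.16 and -0.29 in mural cells, and at 0.88 and -0.87 in neurons. In neurons *Snhg11* had ratios of 0.54 in females and -0.84 in males, and *Rian* 2.45 and -2.76. The male values of all 3 in neurons rest on 4 wild-type cells, of which 1 was called a doublet. *Neat1* in macrophages had ratios of -1.14 and 1.37, and *Meg3* in neuroblasts or progenitors -0.69 and 1.40.

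Barcodes with under 200 genes, which no comparison between cells used, held more of 4 members in the Tg2576 libraries of both sexes. The log2 ratios in females and males were 0.43 and 0.63 for *Malat1*, 1.51 and 2.18 for *Meg3*, 2.31 and 2.39 for *Snhg11*, and 1.22 and 1.38 for *Kcnq1ot1*. In the order female wild-type, female Tg2576, male wild-type and male Tg2576, *Malat1* was at 16835, 22634, 14895 and 23046 CPM in these barcodes. In kept cells *Malat1* was lower in Tg2576 in both sexes in 5 of 10 types and higher in both sexes in 1. In the same order of libraries, these barcodes had median depths of 122, 166, 90 and 140 UMIs. Their mitochondrial shares were 41.3%, 42.6%, 36.7% and 27.7%. The part of depth and mitochondrial share in the ratios, and the source of the RNA in these barcodes, were not tested.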

How the results depend on the processing

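Of 60 contrasts of a member in a cell type against the other types, 28 were called. The number was 16 of 40 at a minimum of 500 genes per cell and 16 of 36 after thinning to 500 UMIs. At a mitochondrial limit of 5%, where 5 types could be tested, it was 6 of 10. When each library was left out in turn, 20 to 25 of 50 to 77 contrasts were called. Between genotypes 0 were called, with 1 at a minimum of 500 genes (*Neat1* in microglia), 2 without a filter on low counts (*Malat1* in astrocytes and *Meg3* in oligodendrocytes), and 0 to 1 when each library was left out, *Meg3* in oligodendrocytes being called without the male Tg2576 or the male wild-type library. Pairs with both intervals on 1 side of 0 numbered 8, with 14 under TMM factors, 2 at the 5% limit and 4 after thinning. The types with lower *Malat1* in Tg2576 were 6 in females and 8 in males, and 3 and 5 of the 5 measured at the 5% limit. *Neat1* in macrophages had a mean of 833 CPM without the top cells, against 2194, and *Miat* in neuroblasts or progenitors 62.6 CPM at the 5% limit and 199 after thinning, against 134. The cause of these changes was not tested, except that the stricter limits and the thinning leave fewer cells. No paired analysis was possible because each group of sex and genotype had 1 library, other than through the sex term of the genotype test, which sets each Tg2576 library against the wild-type library of its sex.

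Among log2 differences between cell types, *Kcnq1ot1* in astrocytes (-0.042), *Neat1* in endothelial cells (-0.062) and *Malat1* in neurons (-0.013) changed sign against the summed other types, *Kcnq1ot1* in endothelial cells (0.10) at 500 genes, and *Kcnq1ot1* (0.41) and *Meg3* (0.86) in macrophages with no mitochondrial limit. Between genotypes, leaving out 1 library also removed the sex term, so that libraries of different sex were set against each other. The *Malat1* difference then had a range of -0.71 to 0.011 in endothelial cells, -0.75 to 0.13 in microglia, -1.09 to 0.10 in oligodendrocytes, -0.70 to 0.46 in mural cells and -0.83 to 0.27 in neuroblasts or progenitors. All 5 were positive without the male Tg2576 library, where female Tg2576 was set against both wild-type libraries (the female pair alone had -0.22 in endothelial cells, -0.02 in microglia and -0.18 in oligodendrocytes), and microglia, mural cells and neuroblasts or progenitors also without the female wild-type library (0.026, 0.44 and 0.039). Within a sex, *Malat1* changed sign in macrophages (female 0.065 with no mitochondrial limit, and female 0.12 and male 0.018 without doublets), female astrocytes (0.59 at 5%), male OPCs (-0.24 under TMM), female endothelial cells (0.20 at 5%), male neurons (0.74 under TMM, 0.14 without doublets) and female choroid plexus cells (-0.30 with no limit, -1.29 at 500 genes). In mural cells it did so in females (-0.093 at 10%, -0.067 at 500 genes, -0.074 after thinning, -0.10 as a mean over cells) and in males (0.092 at 10%, 0.35 at 500 genes). *Meg3* in male neurons was -0.013 at 10%, *Snhg11* there 0.78 under TMM and 0.036 without doublets, and *Kcnq1ot1* in female OPCs -0.38 after thinning. Depth limits the rest, since a type with few UMIs cannot show a rare member.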

Other observations

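Barcodes with at least 200 genes and over 20% mitochondrial UMIs were left out of all cell types. Female wild-type and Tg2576 libraries held 234 and 397 of them, and male wild-type and Tg2576 libraries 73 and 46. *Malat1* stood in them at 48056, 44256, 37665 and 51565 CPM, *Kcnq1ot1* at 393, 406, 408 and 367, and *Neat1* at 283, 193, 337 and 551. *Meg3* had 2238, 1869, 479 and 808 CPM there and *Snhg11* 546, 553, 319 and 294.

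The clusters that could not be named also held members. The 51 cells led by *Npy*, *Fabp7* and *Frzb*, none of them from the male wild-type library, had 90285 CPM of *Malat1* in the female wild-type (2 cells), 53244 in the female Tg2576 (20 cells) and 29573 in the male Tg2576 library (29 cells). The 49 cells led by *Ms4a4b*, *Ccl5* and *Ogn* had 21678, 35970, 29931 and 32937 CPM of *Malat1* and 350, 686, 1340 and 762 CPM of *Neat1* in the 4 libraries.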
